A study of Mus musculus with 16 samples.

Results

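Members of the acute-phase response, 10 of the 20863 genes named on the arrays, were followed in mouse lungs given bleomycin and an inhibitor of the microRNA miR-199a-5p. They are Saa1, Saa2, Saa3, Lcn2, Orm1, Orm2, Hp, Itih4, Lbp and Reg3g. The set was chosen by measured values, since Saa3 stood as high over PBS in bleomycin lungs with the inhibitor as without it, and the other 9 are classical genes of the same response. The bleomycin effects of the 10 genes are therefore given as descriptions, with standard errors and 95% intervals but no test. The property for which Saa3 was selected was not common to all 10. Lcn2 stood less far over PBS with the inhibitor, Itih4 was below PBS with LNA-control alone, and the Hp difference from PBS was small in both arms, with overlapping arrays.

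The acute-phase response is the change in plasma proteins that follows infection or injury. Interleukin-6 signals through gp130, JAK kinases and STAT3, while interleukin-1 and tumour necrosis factor signal through NF-kappaB, and C/EBP factors join both at the promoters of acute-phase genes. The liver makes most of these proteins, but lung epithelium, macrophages and fat cells also express several of them, Saa3, Lcn2 and haptoglobin among them. All 10 genes were measured, each by its probe with the highest mean, and none was removed by a filter.

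Whole lungs of C57BL/6 mice aged 9 to 12 weeks were profiled on one-colour Agilent arrays from 0.2 ug of total RNA. Every mouse received a locked nucleic acid (LNA) oligonucleotide at 5 mg/kg into the trachea 4 and 2 days before and again 4 days after bleomycin or its vehicle PBS, so no group was free of LNA. The groups were bleomycin (1 unit/kg) with LNA-miR-199a-5p (5 arrays), PBS with LNA-miR-199a-5p (3 arrays), bleomycin with LNA-control (5 arrays) and PBS with LNA-control (3 arrays). Bleomycin breaks DNA, and in mouse lung it causes injury followed by scarring. The labels give neither the sex of the mice nor the day of collection, and they do not state that replicates were separate animals, so p-values measure the spread between these samples, which may be technical. RNA integrity numbers lay between 7 and 10. Values are log2 intensities, so 1 unit is a doubling, and levels of different probes are not compared.

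Some arrays stood apart in transcripts of other tissues. Rag1, a gene of thymocytes, read 10.03 in replicate 1 and 10.88 in replicate 4 of the bleomycin LNA-control group, against 5.43 to 6.10 elsewhere, and these arrays are called thymus-rich. Ttr, which encodes the plasma carrier transthyretin, read 9.02 and 9.87 on bleomycin LNA-miR-199a-5p replicates 2 and 3 and 5.09 to 5.85 on the others, and these arrays are called Ttr-rich. The third array of each PBS group was low in fat transcripts. Krt13, a gene of squamous epithelium, was also lowest there, at 5.59 with LNA-miR-199a-5p and 11.38 with LNA-control. Results that rest on these arrays are given with and without them. Sftpc, the defining gene of the lung's type 2 epithelium, read 18.11 to 18.32 on every array, at or near the table's ceiling of 18.32, so its level shows lung tissue but no differences between arrays. In whole lung, a change in the number of cells of a type and a change in RNA per cell cannot be told apart.

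The mature miR-199a-5p shows what the inhibitor was made against. Its sequence from RefSeq (GRCm38.p6) is 23 bases long and comes from a pair of loci, Mir199a-2 at chr1:162217844-162217866 on the plus strand and Mir199a-1 at chr9:21496537-21496559 on the minus strand. Capitals mark the seed, bases 2 to 8.
miR-199a-5p: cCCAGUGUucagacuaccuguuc

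Promoters of the serum amyloid A genes and of Lcn2 are shown because Saa3 and Lcn2 mark the contrast within the set, and because Saa1 and Saa2 are near copies. RefSeq promoters (GRCm38.p6) were found for 7 of the 10 genes. The 250 bases before each start are printed 5′ to 3′, for Saa3 at chr7:46715677-46715926 on the minus strand, Saa1 at chr7:46742981-46743230 on the minus strand, Saa2 at chr7:46751583-46751832 on the plus strand and Lcn2 at chr2:32387740-32387989 on the minus strand. Capitals mark matches to the C/EBP motif TTNNGCAA on either strand.
Saa3: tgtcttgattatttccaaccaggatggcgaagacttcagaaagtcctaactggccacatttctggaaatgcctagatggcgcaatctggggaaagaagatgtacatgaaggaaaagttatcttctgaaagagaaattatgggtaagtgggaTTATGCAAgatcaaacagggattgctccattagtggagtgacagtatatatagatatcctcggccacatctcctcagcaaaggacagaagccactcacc
Saa1: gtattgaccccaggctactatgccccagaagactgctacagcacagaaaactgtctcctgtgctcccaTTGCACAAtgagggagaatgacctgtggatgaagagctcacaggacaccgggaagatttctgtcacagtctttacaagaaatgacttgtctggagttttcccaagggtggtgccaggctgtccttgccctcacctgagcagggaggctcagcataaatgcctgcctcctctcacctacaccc
Saa2: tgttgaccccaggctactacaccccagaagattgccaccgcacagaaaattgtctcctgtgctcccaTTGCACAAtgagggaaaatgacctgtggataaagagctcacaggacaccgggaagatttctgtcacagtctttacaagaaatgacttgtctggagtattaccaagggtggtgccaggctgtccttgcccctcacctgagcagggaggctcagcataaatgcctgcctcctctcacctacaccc
Lcn2: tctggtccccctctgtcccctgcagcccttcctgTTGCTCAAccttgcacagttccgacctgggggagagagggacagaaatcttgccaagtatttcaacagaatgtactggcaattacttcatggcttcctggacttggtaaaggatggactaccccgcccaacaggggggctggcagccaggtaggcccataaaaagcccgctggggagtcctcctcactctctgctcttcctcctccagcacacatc

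The C/EBP motif was present in 5 of the 7 promoters, Saa1, Saa2, Saa3, Lcn2 and Orm2, and in 10.8% of all 32851 promoters searched, over the 250 bases before and 50 after each start. In Saa3 the match TTATGCAA lay 99 to 92 bases before the start, and in Saa1 the match TTGCACAA lay 182 to 175 bases before it. Saa1 and Saa2 are not independent in this count, since their promoters were identical at 95.3% of aligned positions, against 50.9% for Saa1 and Saa3. The STAT motif TTCNNNGAA was found in Itih4 alone among the 7 and in 8.30% of all promoters, and the NF-kappaB consensus in Reg3g alone and in 8.46% of all. None of these matches overlapped another. A match describes letters and is not shown to be a site. Saa1, Saa2 and Saa3 lie together on chromosome 7, and Orm1 and Orm2 on chromosome 4. Each name of the Saa1 and Saa2 pair is a synonym of the other in RefSeq, and the probes of Saa1 and Saa2, like those of Orm1 and Orm2, may share signal, so these pairs may not be 2 separate measurements each.

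The serum amyloid A genes encode small apolipoproteins of high-density lipoprotein that can recruit leukocytes. Saa3 is the form made mainly outside the liver in mice, in macrophages, fat and epithelium. Its levels were 9.82, 11.40, 12.06, 9.78 and 10.17 in bleomycin lungs with LNA-miR-199a-5p, against 7.73, 7.86 and 7.81 in PBS lungs with the same LNA. With LNA-control they were 11.34, 10.45, 9.11, 11.54 and 11.37 in bleomycin lungs, against 8.25, 7.94 and 7.59 in PBS lungs. All 10 bleomycin arrays lay above all 6 PBS arrays, and the bleomycin arrays of the 2 LNA arms overlapped. The difference from PBS was 2.85 ± 0.54 (SE) with LNA-miR-199a-5p, a 7.19-fold level that ranked 11 among all genes, and 2.84 ± 0.54 with LNA-control, 7.14-fold and rank 8. The effect with LNA-miR-199a-5p minus that with LNA-control was 0.01 ± 0.76, with a 95% interval from -1.60 to 1.62. An interval this wide does not show that the arms were equal.

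**Figure D1:**
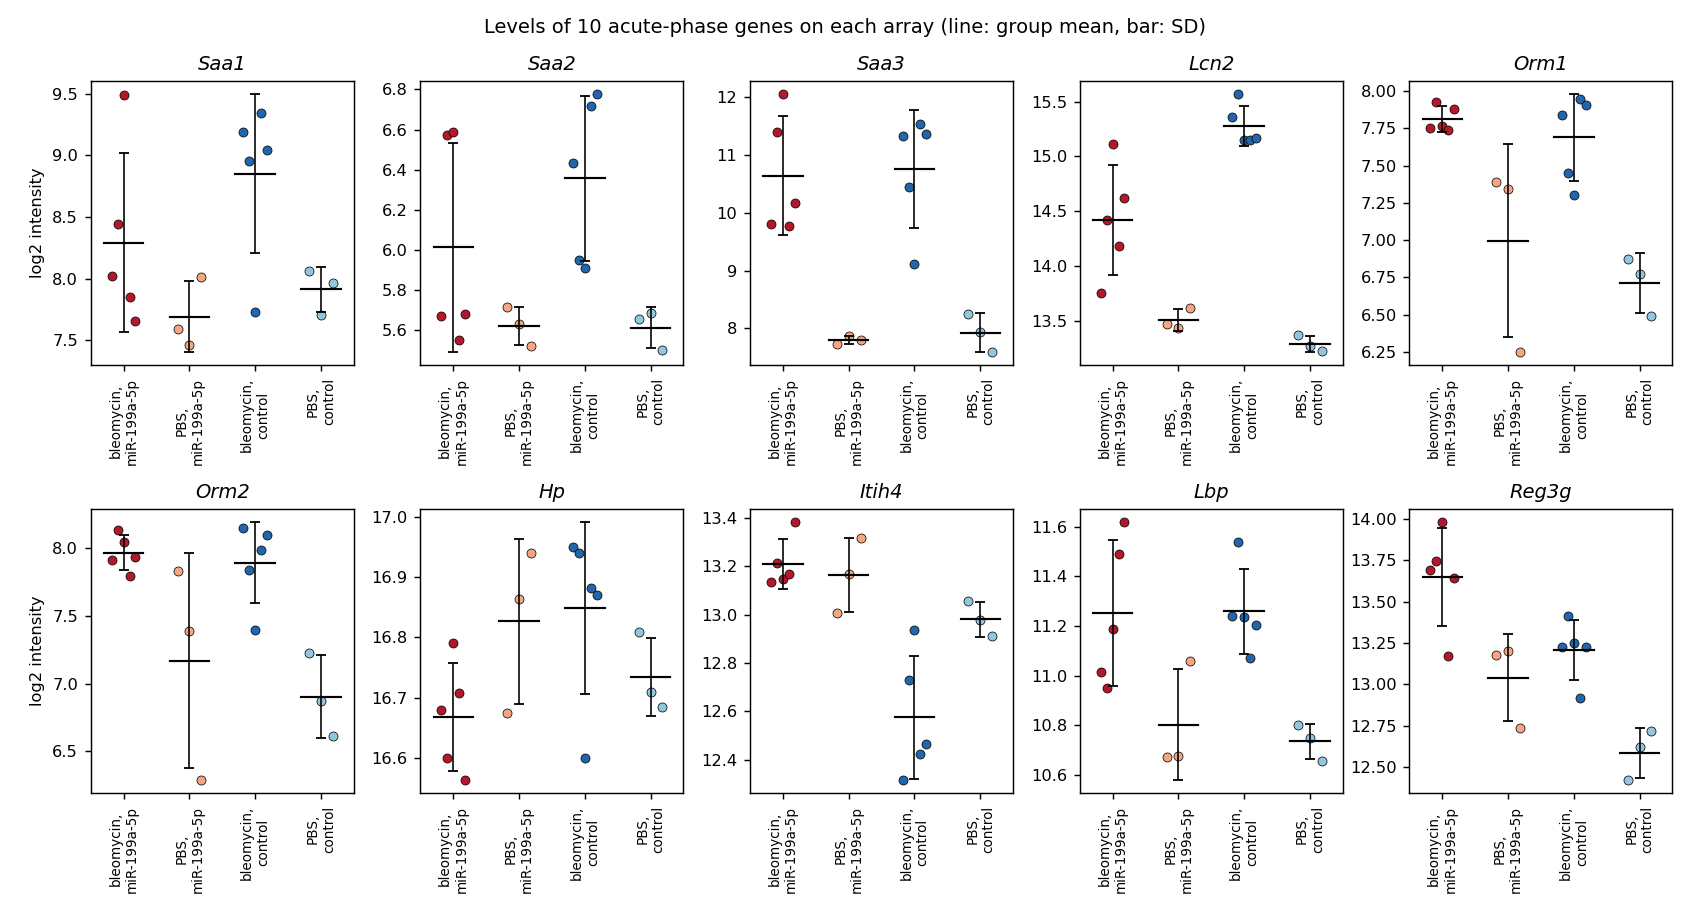
Log2 intensity (vertical axis, scaled for each gene) of the 10 acute-phase genes on each of 16 arrays, by group, with the mean as a line and the SD as a bar. Saa3 is above PBS on all 10 bleomycin arrays and spans 9.11 to 12.06 there, while Lcn2 separates the LNA arms within bleomycin lungs.

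The equal mean of Saa3 was made of unequal arrays. Its spread within groups was at the 99.4th percentile of all genes. Within bleomycin with LNA-miR-199a-5p, replicates 2 and 3 were the highest, and these were the 2 arrays with high Ttr. Without both, the Saa3 difference from PBS was 2.12 with LNA-miR-199a-5p, against 2.84 with LNA-control, and the gap between arms was -0.71. Within bleomycin with LNA-control, the thymus-rich replicates 1 and 4 were among the 3 highest, and replicate 3 was the lowest. Without replicates 1 and 4 the difference was 2.85 with LNA-miR-199a-5p, against 2.38 with LNA-control, and the gap was 0.46. The part of either transcript source in Saa3 was not tested.

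Saa1 and Saa2, the forms that the liver secretes into plasma, were also high on bleomycin LNA-miR-199a-5p replicates 2 and 3. Saa1 was 8.02, 8.45, 9.49, 7.85 and 7.65 in bleomycin lungs with LNA-miR-199a-5p, against 7.59, 7.46 and 8.01 in PBS lungs with it. With LNA-control it was 9.19, 8.95, 7.73, 9.35 and 9.04 in bleomycin lungs, against 8.06, 7.71 and 7.97 in PBS lungs. Bleomycin and PBS arrays overlapped in both arms, through replicate 3 of bleomycin with LNA-control and through replicates 4 and 5 of bleomycin with LNA-miR-199a-5p. The difference from PBS was 0.60 ± 0.37 with LNA-miR-199a-5p and 0.94 ± 0.37 with LNA-control. Saa2 differed by 0.39 ± 0.25 with LNA-miR-199a-5p and by 0.74 ± 0.25 with LNA-control. In the LNA-miR-199a-5p arm it was clear of the PBS arrays only on replicates 2 and 3, at 6.57 and 6.59. Without these Ttr-rich arrays the difference with LNA-miR-199a-5p was 0.15 for Saa1 and 0.01 for Saa2. They were the highest of that group for both genes, so omitting them lowers its mean by construction. Without the thymus-rich arrays the difference with LNA-control was 0.66 for Saa1 and 0.60 for Saa2. The files used here do not say which probes were above background.

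In bleomycin lungs the inhibitor made no called difference to Saa1 or Saa2 in the fit of all 16 arrays (limma, Benjamini-Hochberg over all genes). LNA-miR-199a-5p minus LNA-control was -0.56 ± 0.32 for Saa1 (adjusted p = 0.218) and -0.34 ± 0.22 for Saa2 (adjusted p = 0.266), and for Saa3 it was -0.12 ± 0.46, given with no test. This result rested on a few arrays. Without the 2 arrays rich in Ttr, both genes were called lower with the inhibitor, Saa1 by -1.01 (adjusted p = 0.0187) and Saa2 by -0.72 (adjusted p = 0.00962), and the Saa3 difference was -0.84. This omission was chosen after seeing the data. It takes from the inhibitor group its 2 highest arrays for each of these genes, which lowers that group's mean by construction. The calls made without them are therefore no test of the inhibitor. Saa1 was also called lower without bleomycin LNA-miR-199a-5p replicate 3 alone (-0.86, adjusted p = 0.0282) or without bleomycin LNA-control replicate 3 alone (-0.84, adjusted p = 0.0333). The summed level of 12 hepatocyte markers stood as follows beside the Saa genes. The log2 level was 13.14 to 13.68 in bleomycin lungs with LNA-miR-199a-5p and 11.91 to 12.75 in bleomycin lungs with LNA-control, and that sum is carried by Cyp2e1, which fat also expresses. In that comparison 13.4% of all genes were called higher and 11.4% lower. Of the 12 markers 1 was called higher, Cyp2e1 (1.28 ± 0.22, adjusted p = 0.000843). The 2 called lower were Ahsg (-1.02 ± 0.15, adjusted p = 0.000225) and Alb (-0.24 ± 0.08, adjusted p = 0.0389). All of these were named after their values were seen. Ahsg, which encodes the plasma protein fetuin-A, was also called higher with bleomycin, by 0.56 with LNA-miR-199a-5p (adjusted p = 0.0471) and 1.42 with LNA-control (adjusted p = 4.50e-05). Alb, the defining hepatocyte gene, read 5.71 to 6.52 over all 16 arrays. The part of liver transcripts was not tested. Saa4, the constitutive serum amyloid A gene, which was named after its values were seen, was called in neither arm, at 0.33 ± 0.19 with LNA-miR-199a-5p (adjusted p = 0.253) and 0.09 ± 0.19 with LNA-control (adjusted p = 0.819).

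**Figure D2:**
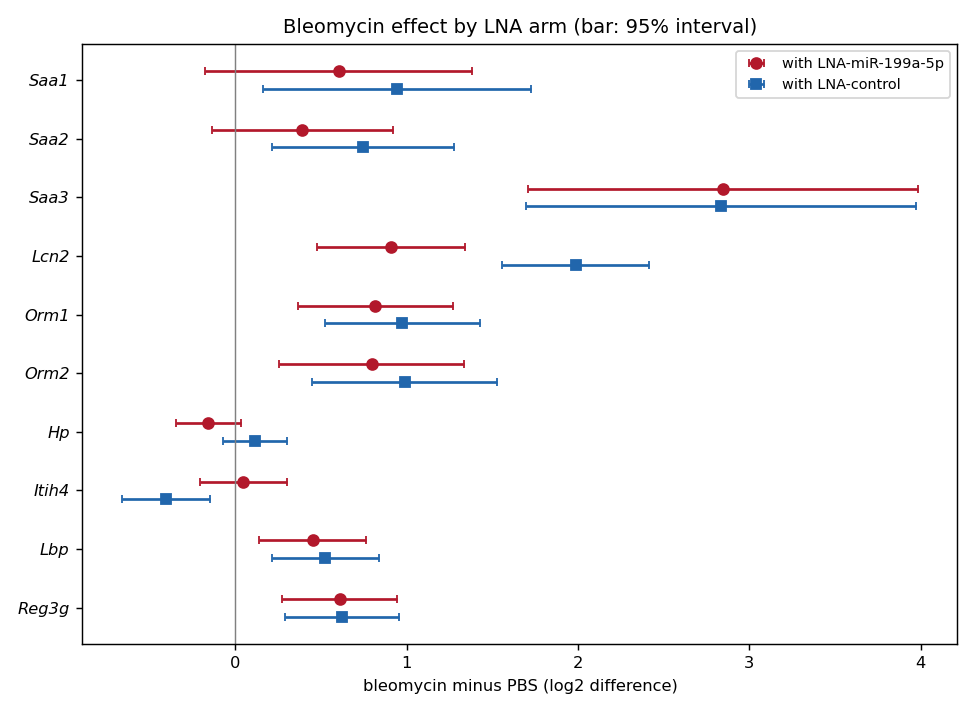
Bleomycin minus PBS (log2, horizontal axis) for the 10 acute-phase genes with LNA-miR-199a-5p (red circles) and with LNA-control (blue squares), with 95% intervals as bars. Saa3 has the same estimate in both arms with wide bars, Lcn2 has arms of 0.91 and 1.99, and the Hp bars include 0 in both.

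Lcn2, Lbp and Reg3g act against bacteria. Lcn2 encodes lipocalin 2, which withholds iron by binding bacterial siderophores and is made by injured epithelium, macrophages and neutrophil precursors. It read 13.76, 14.42, 15.11, 14.18 and 14.62 in bleomycin lungs with LNA-miR-199a-5p, against 13.48, 13.44 and 13.62 in PBS lungs with it. With LNA-control it read 15.36, 15.57, 15.15, 15.15 and 15.17 in bleomycin lungs, against 13.37, 13.27 and 13.23 in PBS lungs. Bleomycin arrays were above PBS arrays in both arms, and every bleomycin array with the inhibitor lay below every bleomycin array with LNA-control. The difference from PBS was 0.91 ± 0.20 with LNA-miR-199a-5p, 1.88-fold, and 1.99 ± 0.20 with LNA-control, 3.96-fold. The effect with LNA-miR-199a-5p minus that with LNA-control was -1.08 ± 0.29 (95% interval -1.69 to -0.47). In bleomycin lungs Lcn2 fell by 0.86 on the log2 scale with LNA-miR-199a-5p against LNA-control (SE 0.18, limma adjusted p = 0.00242), which is 1.81-fold lower. That call held in all 27 alternatives, with a difference between -1.09 and -0.69 and an adjusted p of at most 0.0190.

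Marker genes of other cells moved beside Lcn2 as follows. Of 12 macrophage markers, 3 were called higher with bleomycin against PBS under LNA-miR-199a-5p and 8 under LNA-control. Over all genes 7.31% were called higher and 6.04% lower under LNA-miR-199a-5p, and 9.6% and 7.9% under LNA-control. With LNA-miR-199a-5p against LNA-control in bleomycin lungs, 1 marker was called higher and 8 lower, where 13.4% of all genes were called higher and 11.4% lower. Marco was the 1 called higher (0.70 ± 0.17, limma adjusted p = 0.00711), and Itgam, Siglecf and Chil3 were not called. The largest falls were Spp1 at -3.49 and Trem2 at -2.31. All of these were named after their values were seen. The median difference of the 12 markers in that comparison was -0.58, against 0.01 over all genes. Of 12 neutrophil markers, none was called higher and 3 lower with bleomycin against PBS under LNA-miR-199a-5p. Under LNA-control 1 was called higher and 8 lower. With LNA-miR-199a-5p against LNA-control in bleomycin lungs, 7 of the 12 were called higher and none lower. Their median difference there was 0.94. The summed neutrophil level was 17.00 to 17.22 in bleomycin lungs with LNA-miR-199a-5p, against 17.25 to 17.49 in PBS lungs with it. With LNA-control it was 16.66 to 16.89 in bleomycin lungs and 17.27 to 17.39 in PBS lungs. The markers did not move as one, and Ltf, named after its values were seen, was the 1 called higher with LNA-control (0.82 ± 0.22, adjusted p = 0.0149). The summed macrophage level was 16.77 to 17.59 in bleomycin lungs with LNA-miR-199a-5p and 17.10 to 17.34 in bleomycin lungs with LNA-control. Chil3 weighs most in that sum, at 15.9 to 17.1 with LNA-miR-199a-5p and 15.8 to 16.1 with LNA-control. The mean log2 level of the 12 macrophage markers did not overlap, at 11.45 to 11.62 with LNA-miR-199a-5p and 12.26 to 12.61 with LNA-control. The part of these cells in Lcn2 was not tested.

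Lbp encodes the plasma protein that carries bacterial lipopolysaccharide to CD14. Its levels ran from 10.95 to 11.62 in bleomycin lungs with LNA-miR-199a-5p, against 10.67 to 11.06 in PBS lungs with it. In the LNA-control arm they ran from 11.07 to 11.54 in bleomycin lungs, against 10.66 to 10.80 in PBS lungs. Bleomycin and PBS arrays overlapped only in the LNA-miR-199a-5p arm, through PBS replicate 3 at 11.06. The difference from PBS was 0.45 ± 0.15 with LNA-miR-199a-5p and 0.52 ± 0.15 with LNA-control. In bleomycin lungs the arms differed by -0.01 ± 0.13 (limma adjusted p = 0.978, 95% interval -0.28 to 0.26).

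Reg3g encodes a secreted C-type lectin of epithelium that kills Gram-positive bacteria. It read 13.69, 13.75, 13.98, 13.17 and 13.64 in bleomycin lungs with LNA-miR-199a-5p, against 13.18, 13.20 and 12.74 in PBS lungs with it. With LNA-control it read 13.23, 13.41, 13.25, 12.92 and 13.23 in bleomycin lungs, against 12.42, 12.62 and 12.72 in PBS lungs. Its mean was higher in the LNA-miR-199a-5p arm in both treatments, and the difference from PBS was alike, 0.61 ± 0.16 with LNA-miR-199a-5p and 0.62 ± 0.16 with LNA-control. LNA-miR-199a-5p minus LNA-control was 0.44 ± 0.14 in bleomycin lungs (limma adjusted p = 0.0271) and 0.45 ± 0.18 in PBS lungs, where it was not called (adjusted p = 0.574) although all 3 arrays lay above all 3. The call in bleomycin lungs was lost in 6 of 27 alternatives. It was lost without bleomycin LNA-miR-199a-5p replicate 2 (0.41, adjusted p = 0.0557) or 3 (0.36, adjusted p = 0.0674), and without bleomycin LNA-control replicate 4 (0.37, adjusted p = 0.0779) or 5 (0.44, adjusted p = 0.0501). It was also lost without the thymus-rich arrays (0.35, adjusted p = 0.165) and without the Ttr-rich arrays (0.29, adjusted p = 0.162).

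Club and goblet cell markers, airway secretory genes, were among those higher with the inhibitor beside Reg3g. In bleomycin lungs with LNA-miR-199a-5p against LNA-control, 13.4% of all genes were called higher and 11.4% lower. Of the 10 markers, 5 were called higher and none lower there, with a median of 0.59 against 0.01 over all genes. Their summed level was 19.20 to 19.38 in bleomycin lungs with LNA-miR-199a-5p and 18.88 to 19.08 in bleomycin lungs with LNA-control. In PBS lungs none of the 10 was called, at a summed 19.09 to 19.16 with LNA-miR-199a-5p and 19.10 to 19.14 with LNA-control. The part of these cells in Reg3g was not tested.

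The plasma glycoproteins were the most mixed. Orm1 and Orm2 encode alpha-1-acid glycoproteins, which carry drugs and lipids in plasma. Orm1 read 7.75, 7.93, 7.76, 7.74 and 7.88 in bleomycin lungs with LNA-miR-199a-5p, against 7.39, 7.34 and 6.25 in PBS lungs with it. With LNA-control it read 7.84, 7.45, 7.30, 7.94 and 7.91 in bleomycin lungs, against 6.88, 6.78 and 6.49 in PBS lungs. All bleomycin arrays were above the PBS arrays of their arm, and the inhibitor arm was the tighter of the 2 in bleomycin lungs. Orm1 differed from PBS by 0.82 ± 0.21 with LNA-miR-199a-5p and by 0.98 ± 0.21 with LNA-control, and Orm2 by 0.80 ± 0.25 with LNA-miR-199a-5p and 0.99 ± 0.25 with LNA-control. Both probes were lowest on the third array of each PBS group, at 6.25 for Orm1 and 6.29 for Orm2 with LNA-miR-199a-5p. Without these 2 arrays Orm1 differed by 0.44 with LNA-miR-199a-5p and 0.86 with LNA-control, and Orm2 by 0.35 with LNA-miR-199a-5p and 0.85 with LNA-control. Fat genes were low on the same arrays: Adipoq read 9.99 on PBS LNA-miR-199a-5p replicate 3 and 10.46 on PBS LNA-control replicate 3, against 10.95 to 12.69 elsewhere. Krt13 of squamous epithelium was lowest on these 2 arrays too, and the part of either tissue was not tested. In bleomycin lungs the arms were not called different, at 0.12 ± 0.18 for Orm1 (limma adjusted p = 0.665) and 0.07 ± 0.22 for Orm2 (adjusted p = 0.847).

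Hp encodes haptoglobin, which binds free haemoglobin. It ran from 16.56 to 16.79 in bleomycin lungs with LNA-miR-199a-5p, against 16.67 to 16.94 in PBS lungs with it. With LNA-control it ran from 16.60 to 16.95 in bleomycin lungs, against 16.68 to 16.81 in PBS lungs. The difference from PBS was -0.16 ± 0.09 with LNA-miR-199a-5p and 0.11 ± 0.09 with LNA-control, with overlap in both arms. The gap between arms was -0.27 ± 0.13, with a 95% interval from -0.54 to -0.0054 that just leaves out 0. LNA-miR-199a-5p minus LNA-control in bleomycin lungs was -0.18 ± 0.08 (limma adjusted p = 0.10). It was called without bleomycin LNA-control replicate 3, the lowest of its group (-0.24, adjusted p = 0.0169), and with array weights (-0.20, adjusted p = 0.0489).

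Itih4 encodes an inter-alpha-trypsin inhibitor heavy chain family protein of plasma. It read 13.13, 13.22, 13.15, 13.17 and 13.39 in bleomycin lungs with LNA-miR-199a-5p, against 13.01, 13.17 and 13.32 in PBS lungs with it. With LNA-control it read 12.32, 12.73, 12.94, 12.42 and 12.47 in bleomycin lungs, against 13.06, 12.98 and 12.91 in PBS lungs. In all, 4 of the 5 bleomycin arrays with LNA-control lay below every other array in the study, and replicate 3 lay among the PBS arrays. The difference from PBS was 0.05 ± 0.12 with LNA-miR-199a-5p and -0.41 ± 0.12 with LNA-control, and the gap between arms was 0.45 ± 0.17 (95% interval 0.09 to 0.81). In bleomycin lungs Itih4 was 1.55-fold higher with LNA-miR-199a-5p than with LNA-control (0.63 ± 0.10, limma adjusted p = 0.000477), with no overlap of arrays. The call held in all 28 alternatives, at 0.50 to 0.78 with an adjusted p of at most 0.00845. A second probe gave 0.39 with LNA-miR-199a-5p and a gap between arms of 0.69.

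Among the other heavy chain genes of the family, named after their values were seen, Itih1 was also higher with LNA-miR-199a-5p against LNA-control in bleomycin lungs (0.57 ± 0.08, limma adjusted p = 0.000209). Itih3 was lower (-0.49 ± 0.10, adjusted p = 0.00213) and Itih2 was not called (0.12 ± 0.10, adjusted p = 0.418). The gap between arms was 0.57 ± 0.14 for Itih1 (adjusted p = 0.0241, lost in 6 of 25 alternatives) and -0.75 ± 0.16 for Itih3 (adjusted p = 0.0124, lost in 2 of 25). Heart muscle markers moved beside Itih4. Between the LNAs in bleomycin lungs 13.4% of all genes were called higher, and with LNA-control 7.9% were called lower against PBS. Of the 8 markers, all were called higher in the first comparison and 5 lower in the second. Their summed level was 16.01 to 16.85 in bleomycin lungs with LNA-miR-199a-5p and 15.45 to 16.06 in bleomycin lungs with LNA-control. The part of heart muscle in Itih4 was not tested.

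**Figure D3:**
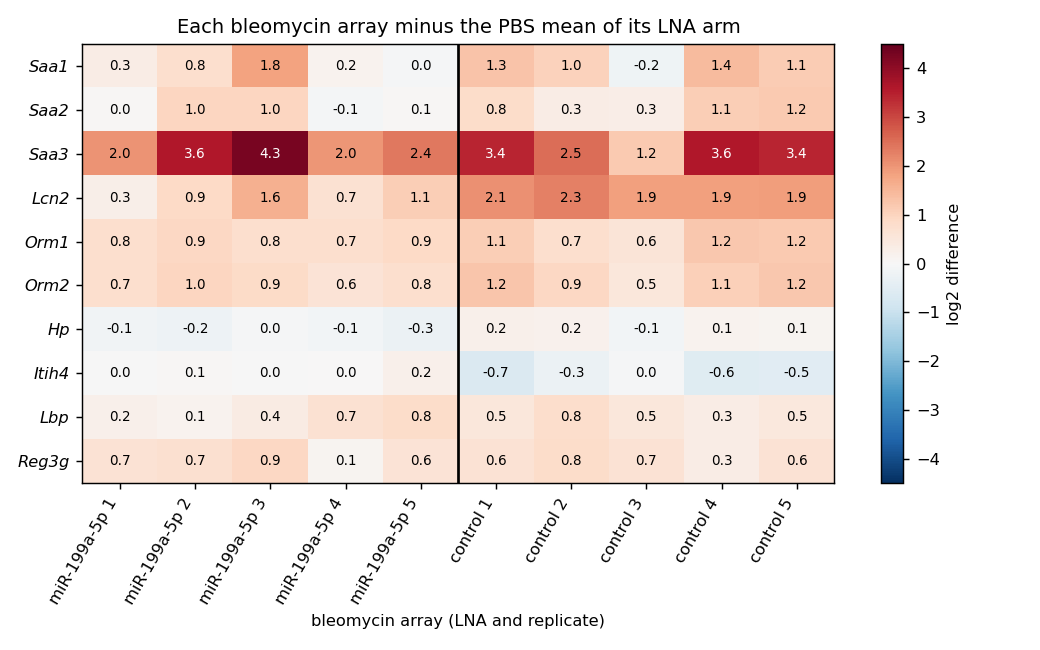
Each bleomycin array minus the PBS mean of its LNA arm (log2, colour and printed value) for the 10 genes in rows and the 10 bleomycin arrays in columns, LNA-miR-199a-5p on the left. Saa3 runs from 1.98 to 4.26 with LNA-miR-199a-5p and from 1.18 to 3.62 with LNA-control, and Lcn2 from 0.25 to 1.60 and from 1.85 to 2.28 in the same order.

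Counted together, 3 of the 10 genes had bleomycin arrays wholly above PBS arrays with LNA-miR-199a-5p (Saa3, Lcn2 and Orm1), where 10.5% of all genes did and 10.1% lay wholly below. With LNA-control 7 of the 10 did (Saa2, Saa3, Lcn2, Orm1, Orm2, Lbp and Reg3g), where 13.9% of all genes did and 11.4% lay wholly below. None of the 10 lay wholly below in either arm. Since the genes were chosen on these contrasts, the counts describe them and support nothing further. Their median difference was 0.60 with LNA-miR-199a-5p and 0.84 with LNA-control, against 0.01 and 0.00 over all genes. Without the third PBS arrays the count with LNA-miR-199a-5p was 5.

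The LNAs were tested against each other within each treatment, except for Saa3 in bleomycin lungs, whose arrays entered its choice. The other 9 were chosen with earlier results of these data known, so their tests in bleomycin lungs are not independent of that choice. In bleomycin lungs 2 of the 9 genes other than Saa3 were called higher with LNA-miR-199a-5p than with LNA-control (Itih4 and Reg3g), 1 was called lower (Lcn2) and 6 were not called. Over all genes 13.4% were called higher and 11.4% lower in that comparison. The number called was 2 without the thymus-rich arrays, 4 without the Ttr-rich arrays and 5 without bleomycin LNA-control replicate 3. Of these omissions, that of the Ttr-rich arrays was chosen after seeing the data. In PBS lungs none of the 10 was called (limma adjusted p from 0.574 for Reg3g to 0.997 for Saa2), in a comparison in which 0.0336% of genes were called higher and 0.0144% lower, and 1526 of 20863 genes had an unadjusted p under 0.05. Both Lcn2 and Reg3g had PBS arrays wholly higher with LNA-miR-199a-5p. The share of all genes with this separation in PBS lungs was not counted, so nothing is drawn from it. With array weights Reg3g was called there (0.53, adjusted p = 0.0361).

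Next to these genes stand 32 measured genes of other acute-phase plasma proteins, from a list of 35. With LNA-miR-199a-5p 7 were called higher and none lower in bleomycin lungs against PBS, where 7.31% of all genes were called higher and 6.04% lower. With LNA-control 12 were called higher and 3 lower, where 9.6% of all genes were called higher and 7.9% lower. Mt1 and Mt2, metallothioneins that bind zinc, and Lrg1, a leucine-rich glycoprotein of plasma, had the smallest p-values with LNA-control. Mt2 averaged 14.07 in bleomycin lungs and 13.61 in PBS lungs with LNA-miR-199a-5p, and 14.94 and 13.20 with LNA-control. Its difference from PBS was 0.46 ± 0.20 with LNA-miR-199a-5p (limma adjusted p = 0.135) and 1.74 ± 0.20 with LNA-control (adjusted p = 2.02e-05). The gap between arms was also tested, and 3.07% of all genes were called with a larger effect and 3.94% with a smaller effect in the LNA-miR-199a-5p arm. Of the 32 genes 4 were called with a larger and 5 with a smaller effect in that arm. Among the 5 were Mt1 (-0.84 ± 0.14, adjusted p = 0.00298), Mt2 (-1.29 ± 0.28, adjusted p = 0.0132) and Lrg1 (-1.12 ± 0.26, adjusted p = 0.0183). The call was lost for Mt2 without the thymus-rich arrays (-1.19, adjusted p = 0.0581), and for Lrg1 in 3 of 26 alternatives, PBS LNA-control replicate 3 left out among them (-0.99, adjusted p = 0.0606).

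Hamp and Orm3 fell with LNA-control. Hamp encodes hepcidin, which lowers plasma iron and is induced by interleukin-6 in liver. It rose with LNA-miR-199a-5p (0.94 ± 0.20, limma adjusted p = 0.00961, lost in 1 of 26 alternatives) and fell with LNA-control (-1.30 ± 0.20, adjusted p = 0.00024), and the gap between arms was 2.23 ± 0.28 (adjusted p = 0.000254). Orm3, the third gene of the Orm cluster, was not called with LNA-miR-199a-5p (0.17 ± 0.12, adjusted p = 0.382) and fell with LNA-control (-0.51 ± 0.12, adjusted p = 0.00782), a call lost in 3 of 26 alternatives, and the gap of 0.67 ± 0.17 (adjusted p = 0.0289) was lost in 11 of 25. The 4 genes called higher in both arms were named after their values were seen, except Mt1. Cfb, a complement protease, rose by 0.62 with LNA-miR-199a-5p and 1.03 with LNA-control, and the complement gene C4b by 0.39 and 0.80 in that order. Steap4, a metalloreductase, rose by 0.83 with LNA-miR-199a-5p and 0.69 with LNA-control, and Mt1 by 0.36 with LNA-miR-199a-5p and 1.196 with LNA-control. The gap between arms was not called for Cfb (adjusted p = 0.384), C4b (adjusted p = 0.08) or Steap4 (adjusted p = 0.827). With LNA-miR-199a-5p the calls of Cfb, C4b, Mt1 and Steap4 were lost in 12, 5, 8 and 6 alternatives, and that of Steap4 with LNA-control in 9. Serpina3n, a serine protease inhibitor, also named after its values were seen, was called with LNA-control (1.31 ± 0.23, adjusted p = 0.000887) and not with LNA-miR-199a-5p (0.46 ± 0.23, adjusted p = 0.197), and its gap between arms was not called (-0.85 ± 0.33, adjusted p = 0.132).

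**Figure D4:**
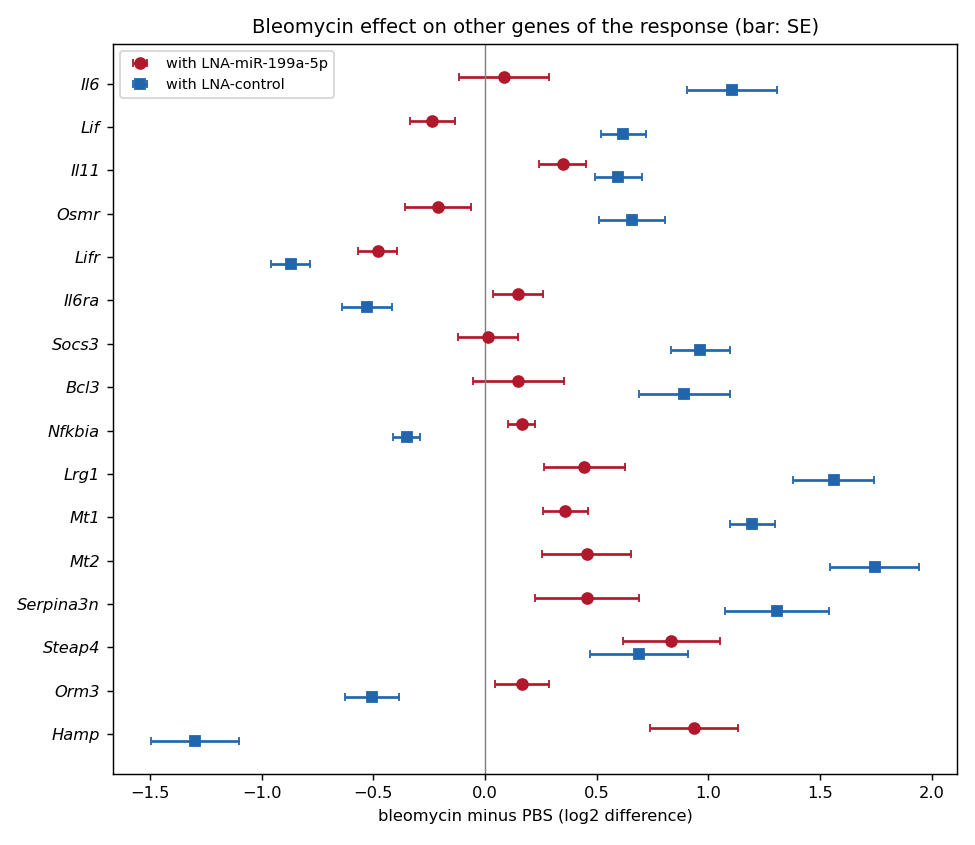
Bleomycin minus PBS (log2, horizontal axis) with LNA-miR-199a-5p (red circles) and LNA-control (blue squares) for ligands, receptors, factors and other plasma proteins of the acute-phase response, with the SE as a bar. Il6, Lif, Osmr and Socs3 lie near or below 0 with LNA-miR-199a-5p and above 0.5 with LNA-control, whereas Steap4 is above 0.5 in both.

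Upstream of the acute-phase genes stands the interleukin-6 family, of which 12 genes were listed. With LNA-miR-199a-5p 1 was called higher and 1 lower, against 7.31% and 6.04% of all genes. With LNA-control 5 were called higher and 3 lower, against 9.6% and 7.9% of all genes. The gap between arms was called positive for 2 of the 12 and negative for 3, against 3.07% and 3.94% of all genes. Il6, named after its values were seen, ran from 5.99 to 6.88 in bleomycin lungs with LNA-miR-199a-5p, against 6.06 to 6.52 in PBS lungs with it. With LNA-control it ran from 6.85 to 7.56 in bleomycin lungs, against 6.12 to 6.20 in PBS lungs. Il6 was not called with LNA-miR-199a-5p (0.08 ± 0.20, limma adjusted p = 0.821) and rose with LNA-control (1.11 ± 0.20, adjusted p = 0.0011). The gap between arms was -1.02 ± 0.29 (adjusted p = 0.0417), a call lost in 16 of 25 alternatives, among them the omission of any 1 of 11 single arrays. Over those alternatives the gap ran from -1.26 to -0.87. Lif, a ligand that acts through gp130, also had a called gap (-0.85 ± 0.14, adjusted p = 0.00276), with -0.24 ± 0.10 in the LNA-miR-199a-5p arm (adjusted p = 0.129) and 0.62 ± 0.10 in the LNA-control arm (adjusted p = 0.000472). Il11, a fibroblast cytokine of the family, rose by 0.35 with LNA-miR-199a-5p (adjusted p = 0.0393, lost in 14 of 26 alternatives) and by 0.60 with LNA-control (adjusted p = 0.000809), and its gap was not called (-0.25 ± 0.15, adjusted p = 0.34). Of the receptors, Lifr fell in both arms, by -0.48 with LNA-miR-199a-5p (adjusted p = 0.00616) and -0.87 with LNA-control (adjusted p = 5.01e-06). The call with LNA-miR-199a-5p was lost in 2 of 27 alternatives, and the mean of all its probes gave -0.21 with LNA-miR-199a-5p (adjusted p = 0.0704) and -0.58 with LNA-control. Osmr and Il6ra, named after their values were seen, had gaps of -0.87 ± 0.21 (adjusted p = 0.0216) and 0.67 ± 0.16 (adjusted p = 0.0191), each lost in 6 of 26 alternatives.

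Inside the cell, 20 genes of STAT3, C/EBP and NF-kappaB were listed. With LNA-miR-199a-5p 5 were called higher and none lower, against 7.31% and 6.04% of all genes. With LNA-control 3 were called higher and 1 lower, against 9.6% and 7.9% of all genes. The 5, named after their values were seen, were Nfkb2 (0.69), Ikbkb (0.50), Tyk2 (0.49), Cebpa (0.34) and Ikbke (0.32). Ikbke alone of the 5 was called with LNA-control too (0.31). The gap between arms was called positive for 2 of the 20, Nfkbia and Ikbkb (0.59, limma adjusted p = 0.038), and negative for Socs3. Socs3 is the feedback inhibitor that STAT3 induces. It averaged 11.87 in bleomycin lungs and 11.86 in PBS lungs with LNA-miR-199a-5p, and 12.85 and 11.89 with LNA-control. Socs3 was not called with LNA-miR-199a-5p (0.01 ± 0.13, limma adjusted p = 0.958), rose with LNA-control (0.96 ± 0.13, adjusted p = 0.000106), and had a gap of -0.95 ± 0.19 (adjusted p = 0.00735). Without the third PBS arrays the gap was -0.81 (adjusted p = 0.0594). Stat3 itself was called in no comparison, with -0.03 ± 0.09 in the LNA-miR-199a-5p arm (adjusted p = 0.865) and 0.06 ± 0.09 in the LNA-control arm (adjusted p = 0.7). Nfkbia, the NF-kappaB inhibitor, was not called with LNA-miR-199a-5p (0.17 ± 0.06, adjusted p = 0.0788) and fell with LNA-control (-0.35 ± 0.06, adjusted p = 0.000719), with a gap of 0.52 ± 0.09 (adjusted p = 0.00267). Bcl3, an NF-kappaB cofactor, was not called with LNA-miR-199a-5p (0.15 ± 0.20, adjusted p = 0.669) and rose with LNA-control (0.89 ± 0.20, adjusted p = 0.00568, lost in 1 of 27 alternatives), and its gap was not called (-0.74 ± 0.29, adjusted p = 0.134).

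For the interleukin-1, tumour necrosis factor, interleukin-17 and interleukin-22 routes 17 ligands and receptors were listed. With LNA-miR-199a-5p none was called higher and 1 lower, against 7.31% and 6.04% of all genes. With LNA-control 3 were called higher and 2 lower, against 9.6% and 7.9% of all genes. Il22ra2, a soluble receptor that blocks interleukin-22, fell in both arms (-0.98 ± 0.16, limma adjusted p = 0.00416, with LNA-miR-199a-5p and -0.85 ± 0.16, adjusted p = 0.00138, with LNA-control). It was higher with LNA-miR-199a-5p than with LNA-control in both treatments, by 0.96 ± 0.14 in bleomycin lungs (adjusted p = 0.000185) and 1.08 ± 0.18 in PBS lungs (adjusted p = 0.0368). The call in PBS lungs was lost in 17 of 26 alternatives, among them the replicate block (adjusted p = 0.16) and the fit of only the compared groups (adjusted p = 0.244). It was the only gene of the 5 pathway lists to be called in PBS lungs. Tnfrsf1b, a receptor of tumour necrosis factor, was not called with LNA-miR-199a-5p (-0.05 ± 0.16, adjusted p = 0.873) and rose with LNA-control (0.80 ± 0.16, adjusted p = 0.00169), with a gap of -0.85 ± 0.22 (adjusted p = 0.0305, lost in 11 of 26 alternatives). Il1r1, the interleukin-1 receptor, was not called with LNA-miR-199a-5p (0.20 ± 0.12, adjusted p = 0.265) and rose with LNA-control (0.42 ± 0.12, adjusted p = 0.0182, lost in 5 of 27 alternatives), and its gap was not called (-0.22 ± 0.17, adjusted p = 0.457).

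Receptors and partners of the acute-phase proteins were 18 in all. With LNA-miR-199a-5p 3 were called higher and none lower, against 7.31% and 6.04% of all genes. With LNA-control 5 were called higher and 3 lower, against 9.6% and 7.9% of all genes. Lrp2, an endocytic receptor that takes up lipocalin 2, was not called with LNA-miR-199a-5p (0.15 ± 0.08, limma adjusted p = 0.198) and rose with LNA-control (0.75 ± 0.08, adjusted p = 6.77e-06). Its gap between arms was -0.60 ± 0.11 (adjusted p = 0.00484). Tlr2, a pattern receptor that serum amyloid A can engage, rose with LNA-control (0.82 ± 0.10, adjusted p = 4.58e-05), against 0.26 ± 0.10 with LNA-miR-199a-5p (adjusted p = 0.0963), and the gap of -0.56 ± 0.15 (adjusted p = 0.0309) was lost in 9 of 26 alternatives. Mmp9, a protease that lipocalin 2 binds in humans, was not called with LNA-miR-199a-5p (0.29 ± 0.11, adjusted p = 0.0889) and fell with LNA-control (-0.78 ± 0.11, adjusted p = 0.000121), a gap of 1.07 ± 0.15 (adjusted p = 0.000949). Fpr2, a serum amyloid A receptor on neutrophils and monocytes, named after its values were seen, rose with LNA-miR-199a-5p (0.39 ± 0.12, adjusted p = 0.0391, lost in 13 of 27 alternatives) and fell with LNA-control (-0.62 ± 0.12, adjusted p = 0.00143), a gap of 1.00 ± 0.17 (adjusted p = 0.00252).

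How the 10 genes moved over the 16 arrays is given as Pearson r, a description in which group differences and shared arrays both enter. Orm1 and Orm2 ran closest, at 0.97, as near copies would. Saa3 ran with Saa2 at 0.86, with Lcn2 at 0.84, with Saa1 at 0.82 and with Orm1 at 0.82. Hp stood apart from Saa3, at 0.15, and Itih4 ran against Saa1, at -0.64. Among the 10431 genes above the median level, those most like Saa3 were Ccl2 (0.95), a chemokine that attracts monocytes, Ifi27l2a (0.94), Sla (0.93), Ch25h (0.93), which makes 25-hydroxycholesterol, Lgals1 (0.91) and Apex1 (0.91). Ccl2 differed from PBS by 1.16 with LNA-miR-199a-5p and by 1.92 with LNA-control. Ifi27l2a differed by 0.58 with LNA-miR-199a-5p and 0.54 with LNA-control, and Lgals1 by 0.62 in either arm. Nearest to Lcn2 were Nnat (0.97), Ctsz (0.97), Itgax (0.96) and Cd14 (0.96), and nearest to Hp were Gclc (0.85), Phf11a (0.84), Znrf1 (0.84) and Ak6 (0.83).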

How the data were processed

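RNA of 16 lung samples was hybridised to one-colour Agilent arrays. The deposited log2 intensities were made by the authors with limma, per the submitters' processing notes, with no version given. Sorted values of any 2 arrays lay within 0.0974 of each other, as quantile normalization leaves them. How background was corrected and whether spots were filtered is not given in the sources used here. No 2 arrays of a group were alike (smallest median difference 0.0942), and the number of arrays limits the precision. Of 62976 spots 31465 had a gene name, and 29036 were matched to RefSeq to update symbols. The probe with the highest mean stood for each of 20863 genes, with no filter on low values.

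Group means were fitted over all 16 arrays with limma 3.58.1 in R 4.3.3, tested on simulated data. Bleomycin was set against PBS in each LNA arm, LNA-miR-199a-5p against LNA-control in each treatment, and the 2 bleomycin effects against each other. Tests were two-sided with Benjamini-Hochberg adjustment over all genes, and a gene was called at an adjusted p under 0.05. The comparison of LNAs in bleomycin lungs shares its arrays with the values that chose Saa3. Promoters were aligned with Biopython 1.88.

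The members and lists were chosen with earlier results of these data known. Named pathway genes were the called genes of each list with the smallest p, at most 3 for bleomycin under LNA-control and 2 for the LNA comparison in bleomycin lungs; those most correlated were the first 6 for Saa3 and the first 4 for Lcn2 and Hp. Exceptions are stated where they occur.

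Same-numbered arrays were checked for pairing by the correlation of their deviations from group means. Between the PBS groups it was 0.41, 0.11 and 0.50. Differently numbered arrays were not compared, and the third array of each PBS group was low in fat transcripts. These values therefore do not settle whether the PBS arrays were paired, and no label pairs them. Over all 20 pairs it ran from -0.37 to 0.50, with 5 over 0.1. With the replicate block 3 genes were called between LNAs in PBS lungs, against 10 without it.

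Alternatives left out arrays singly or in sets, and changed the block, the groups fitted, array weights, an RNA integrity covariate, centring, the filter, the probe and the gene names. Leaving out the Ttr-rich arrays was chosen after seeing the data.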

Additional observations from a re-analysis of the deposited data

Results flagged for a closer look

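Among the 20 sets of 5 bleomycin arrays examined for the 10 genes, 2 held an array far from the other 4, and chance marks about 1 in 20. Both were replicate 3 of bleomycin with LNA-control, at 7.73 for Saa1 (gap over range 0.755) and 16.60 for Hp (0.771). The same array was the lowest of its group for Saa3, at 9.11, and the highest for Itih4, at 12.94.

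The bleomycin effect differed between LNA arms by the limma interaction test for 18 of 29 named pathway genes, with the effect under LNA-control subtracted from that under LNA-miR-199a-5p. It was smaller with LNA-miR-199a-5p for Il6 (-1.02), Lif (-0.85), Osmr (-0.87), Socs3 (-0.95), Lrg1 (-1.12), Mt1 (-0.84), Mt2 (-1.29), Itih3 (-0.75), Tlr2 (-0.56), Lrp2 (-0.60) and Tnfrsf1b (-0.85). It was larger, or positive against a negative effect, for Hamp (2.23), Mmp9 (1.07), Fpr2 (1.00), Il6ra (0.67), Orm3 (0.67), Itih1 (0.57) and Nfkbia (0.52). The calls of Il6, Orm3, Tnfrsf1b, Tlr2, Il6ra, Osmr, Itih1, Lrg1, Itih3, Mt2 and Socs3 were lost in 1 or more alternatives, and that of Il6 in 16 of 25. The named genes were picked in part on a contrast that enters this difference, so 18 of 29 is not a share to set against all genes. The 29 are the genes followed through the alternatives. Other list genes with a called gap, such as Ikbkb (0.59), are not among them.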

How the results depend on the processing

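Of 1325 values of the 10 genes under the alternatives 1303 kept their call or stayed within the replicate spread, and none reversed. The others lost a call (6), gained one (7) or moved (9). A reversal was a change of sign in a called test, or in an untested value well beyond its SE. Small values could therefore change sign without being counted. An untested value also counted as unchanged when it moved by less than its gene's replicate spread. That spread was 0.85 for Saa3, 0.58 for Saa1 and 0.39 for Saa2. The Saa2 difference from PBS with LNA-miR-199a-5p went from 0.39 to 0.01 without the Ttr-rich arrays and counted as unchanged. For these 3 genes the count is therefore no measure of stability. The Saa3 gap between arms ran from -0.71 to 0.46, within a replicate spread of 0.85. Of 3081 values of named pathway genes 187 lost a call, 19 gained one and none reversed. The replicate block, gave 663 called genes for bleomycin in the inhibitor arm, 2429 in the LNA-control arm, 3 for the LNAs in PBS lungs and 947 for the gap between arms, against 2786, 3651, 10 and 1462 without it. It lost the call of Il22ra2 in PBS lungs and changed no call of the 10 genes.

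In the order bleomycin with LNA-miR-199a-5p, bleomycin with LNA-control, the LNAs in bleomycin lungs, the LNAs in PBS lungs and the gap, leaving out 1 array gave 1186 to 3534, 2293 to 3984, 3785 to 5640, 2 to 121 and 632 to 2215 called genes. Only the compared groups gave 271 for bleomycin in the inhibitor arm and 0 for the LNAs in PBS lungs. Array weights gave 6713 for bleomycin with LNA-control, 394 for the LNAs in PBS lungs (1 of the 10 genes, Reg3g) and 3862 for the gap. The RNA integrity covariate gave 1162 for bleomycin in the inhibitor arm, 2981 for the LNAs in bleomycin lungs and 733 for the gap. Without the thymus-rich arrays the counts were 2258 for bleomycin with LNA-control, 2356 and 3 for the LNAs in bleomycin and PBS lungs, and 525 for the gap. Without the third PBS arrays they were 791 for bleomycin in the inhibitor arm, 2268 in the LNA-control arm, 31 for the LNAs in PBS lungs and 513 for the gap. The cause was not tested.

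Of the 9 genes other than Saa3, 2 to 5 were called between LNAs in bleomycin lungs when 1 array was left out. Of all 10 genes, 3 to 5 lay wholly above PBS with LNA-miR-199a-5p in those omissions, and 7 to 9 with LNA-control. Without the third PBS arrays 5 did with LNA-miR-199a-5p. Among genes above the median level, which keeps only Saa3, Lcn2, Hp, Itih4, Lbp and Reg3g of the 10, 4 did with LNA-control. The gap could not be fitted on only 2 groups. Signal over background is not given, which limits what can be said of Saa2, Orm1 and Orm2.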
